A study of Mus musculus with 9 samples.

Results

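Predicted long non-coding RNA (lncRNA) loci are genes that the annotation calls lncRNA but that carry only a provisional name, either a Gm number or a clone name ending in Rik. The loci described here were chosen by such a name, by the lncRNA biotype, and by their measured counts, which had to sum to at least 90 over all 9 libraries of the study. No genotype entered that choice. It left 1406 loci, 915 with a Gm number and 491 with a Rik name, out of 9376 predicted lncRNA loci of any count and 56748 genes in all.

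The libraries were bulk RNA sequencing of total RNA from mouse brain without the cerebellum, at 7 months of age, with 3 mice and 3 libraries for each of 3 genotypes. Wild-type mice carried no transgene. The 5xFAD line accumulates amyloid from mutant human genes, including APP, that the neuronal Thy1 promoter drives. The 5xFAD/Cd5l tg/wt mice have the same genes plus a transgene that expresses mouse Cd5l from the promoter of human PDGF-B. Tissue macrophages normally make and secrete CD5L. Sex is not labelled. Counts at Cd5l were 2553, 2822 and 3551 in the 5xFAD/Cd5l tg/wt libraries, 0 in each 5xFAD library, and 0, 1 and 0 in the wild-type libraries. Each p-value below sets a difference between genotypes against the spread between mice within them. In the main fit that spread was estimated from all 9 libraries, with 3 mice a genotype.

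Long non-coding RNAs are transcripts without a long open reading frame. Many stay in the nucleus, where some bind chromatin or splicing factors, and many lie antisense to a coding gene or start back to back with it. Some are the primary transcripts from which the Drosha enzyme cuts microRNA (miRNA) hairpins. The hairpins become mature miRNAs of about the length of the sequences printed here, which repress messenger RNAs through their seed, the bases from 2 to 8. The counts here are of the host locus, and mature miRNAs were not analysed here.

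Libraries held 14575416 to 17865150 counts, so that 3 counts were 0.168 to 0.207 CPM (counts scaled to library depth by TMM). The loci together took 0.538% ± 0.0561 of the counts in wild-type, 0.492% ± 0.0102 in the 5xFAD group and 0.538% ± 0.0373 with the Cd5l transgene (SD, n = 3). Below, ± after a level is the SD of 3 libraries and ± after a log2 fold change is its SE, and 3 levels in a row follow the order wild-type, 5xFAD, then the double transgenic group. The label of brain fitted the neuronal markers, whose 9 genes summed to 7399 to 8207 CPM in every library. These markers cannot show whether the cerebellum was removed. Some libraries stood apart in regional markers: the cerebellum and hindbrain list summed to 847.5 CPM in wild-type 3 against 47.4 to 173.8 CPM elsewhere, and 5xFAD/Cd5l tg/wt 2 and 3 were the lowest in it. Of that list, Cbln3 had 71.0 ± 105 CPM in wild-type, 2.01 ± 2.44 in 5xFAD and 0.444 ± 0.0769 CPM in 5xFAD/Cd5l tg/wt. Whether cerebellar tissue remained in wild-type 3 was not tested. Counts that lead a result are therefore also given without wild-type 3 and 5xFAD/Cd5l tg/wt 2 and 3. Of the 5xFAD/Cd5l tg/wt group leaving out these 3 libraries keeps replicate 1 alone, so that any rise counted there rests on 1 library. Replicate 1 was itself the lowest library in the striatum list, at 594.7 CPM against 710.8 to 1185 CPM elsewhere. In the choroid plexus list it was the lowest too, at 329.9 CPM against 433.2 to 813.4 CPM. In whole tissue, fewer cells of a type and less RNA per cell cannot be told apart.

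Of the 1406 loci, 39 contained 63 annotated miRNA genes on their own strand, and these hosts are shown first because a larger share of them than of the other loci passed the threshold. Mature sequences could be matched for 47 of the miRNA genes in 29 hosts (RefSeq, GRCm38.p6). The following are mature miRNAs of hosts that passed the threshold in either main comparison, with the seed in capitals. Gm3764 holds Mir9-1, a source of the neural miR-9, and Mir3093. A330023F24Rik holds Mir29b-2 and Mir29c, whose products share the seed AGCACCA and are known for repressing collagens. A230057D06Rik and A330076H08Rik hold genes of the Mir344 cluster, 6720427I07Rik holds 3 let-7 genes, whose products share the seed GAGGUAG and mark differentiated cells, and Gm14636 holds Mir221 and Mir222, whose products share the seed GCUACAU. E130102H24Rik holds Mir101a, Gm3294 holds Mir129-1, Gm26871 holds Mir137, known for its role in neuronal maturation, and 2900076A07Rik holds Mir1839.
miR-9-5p: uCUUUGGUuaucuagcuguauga
miR-29b-3p: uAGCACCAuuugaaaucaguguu
miR-29c-3p: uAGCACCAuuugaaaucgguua
let-7a-5p: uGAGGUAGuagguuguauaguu
let-7d-5p: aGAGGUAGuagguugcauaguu
let-7f-5p: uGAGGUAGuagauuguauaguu
miR-221-3p: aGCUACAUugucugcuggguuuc
miR-222-3p: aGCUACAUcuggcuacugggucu
miR-344-3p: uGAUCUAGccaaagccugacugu
miR-344c-3p: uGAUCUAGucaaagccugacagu
miR-344d-3p: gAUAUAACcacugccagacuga
miR-101a-3p: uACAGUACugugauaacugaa
miR-129-5p: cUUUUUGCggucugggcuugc
miR-137-3p: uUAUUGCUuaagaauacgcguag
miR-1839-5p: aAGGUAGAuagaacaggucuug

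Promoters are shown for 4 of these hosts because they moved together between genotypes while their base composition differed. Each window runs from 250 bases before to 50 bases after the start that RefSeq lists (GRCm38.p6), which need not be the start of the model in the count table. For Gm3764 the window ends at 88214531 and miR-9-5p starts at 88215613, while in GRCm39 the model starts at 88113837 and Mir9-1 at 88122905. That window thus lies inside the model, as does that of A330023F24Rik by the positions of Mir29b-2. Neither shows the start of the counted model. Capitals mark CG dinucleotides and matches, on either strand, to CCAAT, TGACGTCA (a cyclic AMP response element) or GGGCGG (a GC box, whose matches overlap CG dinucleotides).
A230057D06Rik (chr7:61927525-61927824, minus strand): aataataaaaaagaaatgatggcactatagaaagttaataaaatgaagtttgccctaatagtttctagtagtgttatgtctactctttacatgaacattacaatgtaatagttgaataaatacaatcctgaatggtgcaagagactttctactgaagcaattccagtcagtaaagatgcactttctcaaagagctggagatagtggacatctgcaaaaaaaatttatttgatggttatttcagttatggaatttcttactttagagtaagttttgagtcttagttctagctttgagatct
Gm3764 (chr3:88214232-88214531, plus strand): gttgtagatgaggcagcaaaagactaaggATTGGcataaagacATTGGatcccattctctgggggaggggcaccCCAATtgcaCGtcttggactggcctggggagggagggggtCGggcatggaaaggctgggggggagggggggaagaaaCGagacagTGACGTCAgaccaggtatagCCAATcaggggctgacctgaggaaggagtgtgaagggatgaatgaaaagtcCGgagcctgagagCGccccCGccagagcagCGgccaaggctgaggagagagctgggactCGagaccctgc
A330023F24Rik (chr1:195017149-195017448, plus strand): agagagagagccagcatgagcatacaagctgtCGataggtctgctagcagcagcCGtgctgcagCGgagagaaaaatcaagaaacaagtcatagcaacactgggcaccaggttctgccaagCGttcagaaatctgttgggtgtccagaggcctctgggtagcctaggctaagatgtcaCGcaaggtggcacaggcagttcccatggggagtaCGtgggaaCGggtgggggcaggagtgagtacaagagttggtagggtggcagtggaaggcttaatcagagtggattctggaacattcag
E130102H24Rik (chr4:101356199-101356498, minus strand): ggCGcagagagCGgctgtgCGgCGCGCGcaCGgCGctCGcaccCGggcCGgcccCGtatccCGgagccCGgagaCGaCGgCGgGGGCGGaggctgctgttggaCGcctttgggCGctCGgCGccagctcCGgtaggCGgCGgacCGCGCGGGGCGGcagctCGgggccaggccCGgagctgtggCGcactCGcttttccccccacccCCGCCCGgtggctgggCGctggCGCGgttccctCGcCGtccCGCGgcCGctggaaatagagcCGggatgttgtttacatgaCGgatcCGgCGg
The A230057D06Rik window held 0 CG dinucleotides and the E130102H24Rik window held 47, beside 9 in Gm3764 and 7 in A330023F24Rik. Among the 652 loci with a promoter of the same symbol, chromosome and strand in RefSeq, the median was 12, against 7 over all 32851 promoters of the table. These sets are unlike, because the loci enter with the first start listed and the table with every start, which holds for the shares below too. CCAAT was found in 38.2% of the loci and 37.4% of all promoters, GGGCGG in 43.7% and 35.7%, and TGACGTCA in 2.45% and 1.79%. Among 16 loci that fell in 5xFAD and had a promoter entry, 8 held CCAAT, 6 held GGGCGG and 1 held TGACGTCA, and the median was 10 CG dinucleotides.

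Most of the loci were low. Their mean level over the 9 libraries had a median of 1.66 CPM, 377 were under 1 CPM and 35 reached 20 CPM. The 10 highest took 13.5% of the counts of all 1406. B230334C09Rik, antisense to Lrrc40, was the highest at 128 ± 36.2 CPM in wild-type, 106 ± 5.65 CPM in 5xFAD and 168 ± 30.5 CPM in 5xFAD/Cd5l tg/wt. 4933431E20Rik, antisense to Eps8l3, came next, at 112 ± 7.33, 109 ± 1.63 and 107 ± 3.97 CPM, and passed in no comparison (adjusted p of 0.770 to 0.848). Per kb of model length the order was another one, with a median of 0.963 CPM per kb and with short models antisense to coding genes at the top. Gm42413, a model of 338 bases antisense to Qdpr, reached 38.7 CPM per kb, Gm12841 antisense to Atp6v0b 31.5 CPM per kb and Gm11175 over Jund 29.1 CPM per kb, against 3.98 CPM per kb for Gm3764. The strandedness of the counting is not given in the sources used here, so that reads of a locus and of a gene on its other strand cannot be told apart.

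Loci just below the minimum of 90 counts, at 89 counts, included 1700084E18Rik, Gm49871 and Gm38576, with 5 to 21 counts a library. Loci at the minimum itself included A930012O16Rik, 4930599N23Rik and Gm16066, with 3 to 20 counts a library.

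5xFAD against wild-type, which asks what the amyloid genotype changed, gave only lower loci. Of the 1406, 40 fell and 0 rose by edgeR's quasi-likelihood test with Benjamini-Hochberg adjustment over the 17096 genes tested, and 187 had an unadjusted p under 0.05. The 40 are 2.84% of the loci, beside 3.61% of all tested genes called in either direction and 2.52% that fell. The loci as a whole thus stood near the background, while 1.09% of all tested genes rose against 0 of the loci, a count that was also 0 with DESeq2 and limma-voom, 4 with no filter, and 1 without any single wild-type library. The log2 fold changes of the 40 ran from -2.48 to -0.42, with a median of -1.18, and 25 were over 2-fold. Over all 1406 the median was -0.07, against -0.01 for all tested genes.

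**Figure D1:**
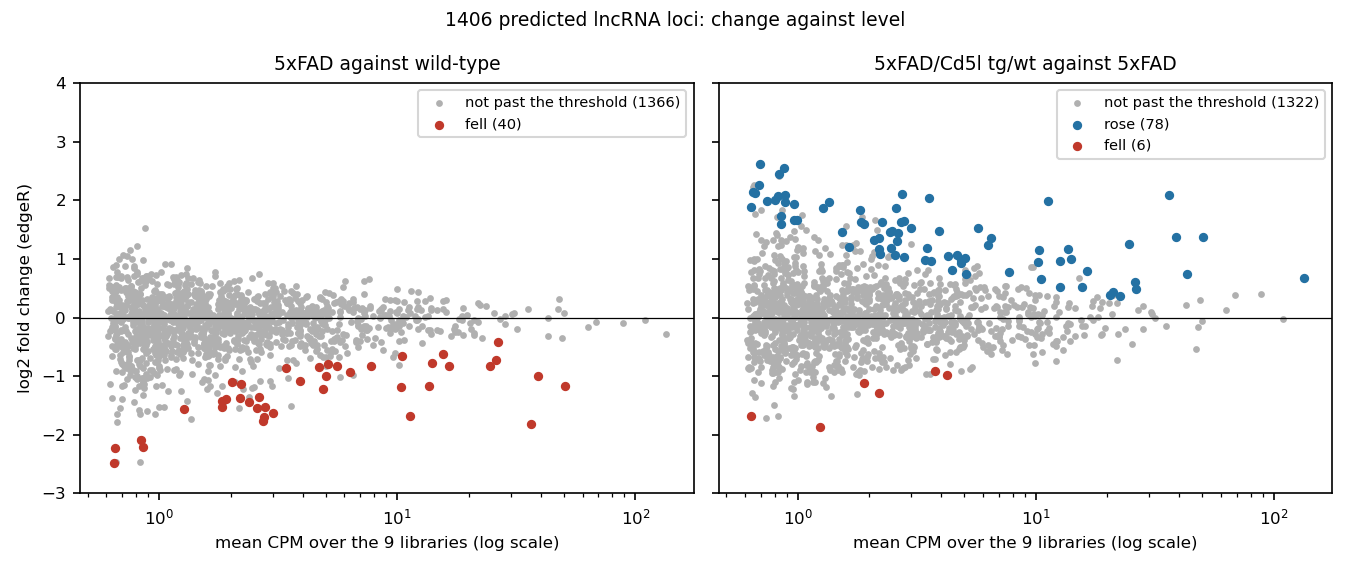
Change against level for the 1406 predicted lncRNA loci: each point is a locus, the horizontal axis its mean CPM over the 9 libraries on a log scale, and the vertical axis its log2 fold change from edgeR. In 5xFAD against wild-type (left) 40 loci fell and 0 rose, and in 5xFAD/Cd5l tg/wt against 5xFAD (right) 78 rose and 6 fell.

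In all 40 the 5xFAD libraries lay below every wild-type library. Without regard to the test, 204 loci (14.5%) were lower without overlap, beside 14% of all tested genes, and 61 (4.34%) were higher, beside 10.5% of all tested genes. The 40 were also near their wild-type level in 5xFAD/Cd5l tg/wt: their log2 fold changes there against wild-type ran from -0.40 to 0.44, with a median of -0.01. Both comparisons use the same wild-type libraries.

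5xFAD/Cd5l tg/wt against 5xFAD, which asks what the Cd5l transgene changed on the amyloid background, gave mostly higher loci. By the same test 78 of the loci were higher and 6 lower, which is 5.97% of the 1406 beside 6.36% of all tested genes, and 298 had an unadjusted p under 0.05. All tested genes rose in 5.47% and fell in 0.889%. The 78 had log2 fold changes of 0.36 to 2.61 with a median of 1.36, and 57 of them were over 2-fold. No overlap was seen in 227 higher loci (16.1%, beside 16.8% of all tested genes) and 160 lower loci (11.4%, beside 12.1%). This comparison shares its 5xFAD libraries with 5xFAD against wild-type, so that a low or high 5xFAD value moves both in opposite directions, and values from the 2 are set side by side below without a test of their relation.

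The count in 5xFAD/Cd5l tg/wt against 5xFAD leaned on single libraries. It was 18 without 5xFAD replicate 2, 22 without 5xFAD replicate 1, 27 without 5xFAD/Cd5l tg/wt replicate 3, 36 without 5xFAD/Cd5l tg/wt replicate 2, and 23 without the 3 libraries that stood apart. For 5xFAD against wild-type it was 8 without 5xFAD replicate 1, 10 without 5xFAD replicate 2, 14 without wild-type replicate 2, 23 without wild-type replicate 1, 26 without 5xFAD replicate 3, and 64 without those 3 libraries.

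The hosts of miRNAs changed more often than the other loci. Of the 39, 8 fell with the 5xFAD genotype (20.5%) and 11 rose when Cd5l was added to it (28.2%), while of the 1367 loci without a miRNA inside 32 fell (2.34%) and 67 rose (4.90%). The host rises include that of Gm27000, which met the minimum summed count only because its 5xFAD/Cd5l tg/wt counts were above its 5xFAD level. None of the 39 rose in the first comparison or fell in the other by edgeR, DESeq2 or limma-voom. Hosts were higher, with a median of 2.94 CPM against 1.64 CPM, and the part of this in the shares was not tested. Among loci of 5 CPM or more 4 of 12 hosts fell (33.3%) and 6 rose (50%), beside 14 (6.60%) and 21 (9.91%) of 212 others. The same count among lncRNA genes with established names was 10 of 22 hosts that fell (45.5%) and 11 that rose (50%), beside 15 (4.02%) and 27 (7.24%) of 373 without a miRNA. Protein-coding genes with a miRNA inside stood near the background, with 25 of 724 that fell (3.45%) and 54 that rose (7.46%). No test of these shares was made, because the grouping was chosen after values were seen.

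**Figure D2:**
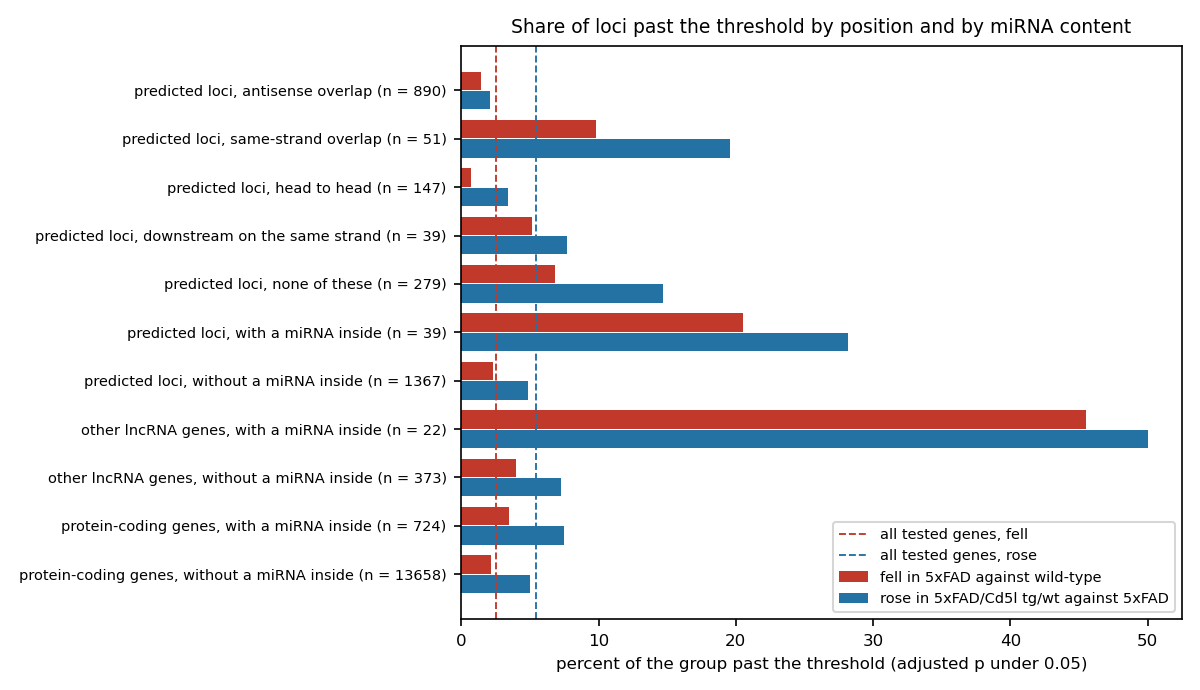
Share of loci past the threshold (edgeR, adjusted p under 0.05) by position and by miRNA content: bars give the percent of each group that fell in 5xFAD against wild-type or that was higher in 5xFAD/Cd5l tg/wt than in 5xFAD, and dashed lines give the same for all tested genes (2.52% and 5.47%). Bars for predicted lncRNA loci with a miRNA inside reach 20.5% and 28.2%, and those for other lncRNA genes with a miRNA inside 45.5% and 50%. Those for predicted loci antisense to a coding gene stay at 1.46% and 2.13%.

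Single libraries moved the host counts. The 8 falls were 3 without 5xFAD replicate 1, 4 without 5xFAD replicate 2, and 5 without 5xFAD replicate 3 or wild-type replicate 2 or 3. The 11 rises were 5 without 5xFAD replicate 2, 7 without 5xFAD replicate 1, 7 without 5xFAD/Cd5l tg/wt replicate 2 and 6 without its replicate 3. Without the 3 libraries that stood apart, 9 fell and 5 rose. Among the hosts with established names, the 10 falls were 6 without wild-type replicate 2 or 5xFAD replicate 1 or 3. Their 11 rises were 7 without 5xFAD replicate 1, 5xFAD/Cd5l tg/wt replicate 2 or 3, or the 3 libraries that stood apart.

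A330023F24Rik, the miR-29b-2 and miR-29c host, changed most among the hosts. It lies on chromosome 1 from 194658654 to 194720212, plus strand (GRCm39), and its span overlaps Cd46 on the other strand. Its level was 30.2, 58.1 and 44.2 CPM in wild-type, 14.3, 12.4 and 10.7 CPM in 5xFAD, and 41.5, 47.8 and 69.2 CPM in 5xFAD/Cd5l tg/wt. Every 5xFAD library was below every library of the other genotypes, which overlapped each other. The log2 fold change was -1.82 ± 0.24 (SE, adjusted p = 0.00114, edgeR) in 5xFAD against wild-type. Against 5xFAD, 5xFAD/Cd5l tg/wt was higher by 2.08 ± 0.24 on the log2 scale (adjusted p = 0.000493). Counts at Cd46, a complement regulator gene on the opposite strand, moved the same way, with log2 fold changes of -1.17 (adjusted p = 0.0283) and 1.64 (adjusted p = 0.00334). The strandedness of the counting is not given, so that reads of Cd46 and of A330023F24Rik cannot be told apart where they overlap.

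A230057D06Rik, the long Mir344 cluster host, lies on chromosome 7 from 61354267 to 61578438, minus strand, 418 kb from Ndn, the nearest coding gene. It stood at 11.8, 15.3 and 12.7 CPM in wild-type, 3.97, 3.76 and 4.75 CPM in 5xFAD, and 12.1, 15.8 and 21.6 CPM in 5xFAD/Cd5l tg/wt. The 5xFAD libraries were again the lowest and the other genotypes overlapped. Fitted log2 fold changes were -1.68 ± 0.21 (adjusted p = 0.000904) and 1.99 ± 0.21 (adjusted p = 0.000351). Its neighbours on the same strand did not all do the same. A330076H08Rik, from 61579885 to 61632106, with Mir344-2, had 2.91 ± 0.420 CPM in 5xFAD and rose to 8.40 ± 1.42 CPM in 5xFAD/Cd5l tg/wt (adjusted p = 0.00806, lost without 5xFAD replicate 2), while its value against wild-type missed the threshold (-1.01 ± 0.29, adjusted p = 0.0815). B230209E15Rik, on the other side from 61179619 to 61265075, stood at 40.9 ± 7.83, 40.6 ± 2.81 and 46.9 ± 2.55 CPM and passed in neither comparison. Ndn itself had log2 fold changes of 0.12 (adjusted p = 0.715) and -0.36 (adjusted p = 0.127).

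Gm3764, the miR-9-1 host, was the most abundant locus that fell. It lies on chromosome 3 from 88113837 to 88137268, plus strand, with no coding gene overlapping it. It stood at 48.1, 72.5 and 55.3 CPM in wild-type, 28.4, 25 and 24.6 CPM in 5xFAD, and 54.3, 72.2 and 74.8 CPM in 5xFAD/Cd5l tg/wt, with 5xFAD alone in the low range. Its log2 fold changes were -1.17 ± 0.15 (adjusted p = 0.00119) and 1.37 ± 0.15 (adjusted p = 0.000464). C130071C03Rik, which holds Mir9-2 and so encodes the same mature miR-9-5p, was about as abundant but passed in neither comparison. It had 53.5 ± 3.42 CPM in wild-type, 42.0 ± 2.40 in 5xFAD and 51.6 ± 8.93 CPM in 5xFAD/Cd5l tg/wt, with log2 fold changes of -0.35 (adjusted p = 0.137) and 0.30 (adjusted p = 0.149). The difference between these hosts was not tested.

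The let-7 host 6720427I07Rik (chromosome 13, 48686381 to 48699976, minus strand) had 4.77, 6.93 and 7.88 CPM in wild-type, 2.78, 2.64 and 2.94 CPM in 5xFAD, and 4.20, 5.67 and 6.10 CPM in 5xFAD/Cd5l tg/wt. Only 5xFAD stood apart. It fell by 1.22 on the log2 scale in 5xFAD (adjusted p = 0.0117), lost without 5xFAD replicate 1 or 2 (adjusted p up to 0.0620). It rose by 0.94 when the Cd5l transgene was present (adjusted p = 0.0324), a call lost without any 1 of the 3 5xFAD libraries or of replicates 2 and 3 of 5xFAD/Cd5l tg/wt.

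E130102H24Rik, the miR-101a host (chromosome 4, 101203721 to 101213932, minus strand), had 4.31, 3.65 and 4.77 CPM in wild-type, 1.72, 2.30 and 1.94 CPM in 5xFAD, and 4.80, 6.21 and 5.59 CPM in 5xFAD/Cd5l tg/wt. The 3 genotypes did not overlap in these values, with 5xFAD lowest and 5xFAD/Cd5l tg/wt highest. The log2 fold changes were -1.08 ± 0.21 (adjusted p = 0.0154, lost without 5xFAD replicate 1 or 3) and 1.47 ± 0.21 (adjusted p = 0.00186). Against wild-type, 5xFAD/Cd5l tg/wt did not pass at this locus (0.39 on the log2 scale, edgeR adjusted p = 0.459). 2900076A07Rik, with Mir1839, had 6.86 ± 0.904, 3.59 ± 0.462 and 8.47 ± 1.92 CPM and passed in both comparisons, with log2 fold changes of -0.93 (adjusted p = 0.0282) and 1.24 (adjusted p = 0.00483). The first of these was lost without wild-type replicate 2 or 3 or any 5xFAD replicate, and the other without the 3 libraries that stood apart (adjusted p = 0.118).

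**Figure D3:**
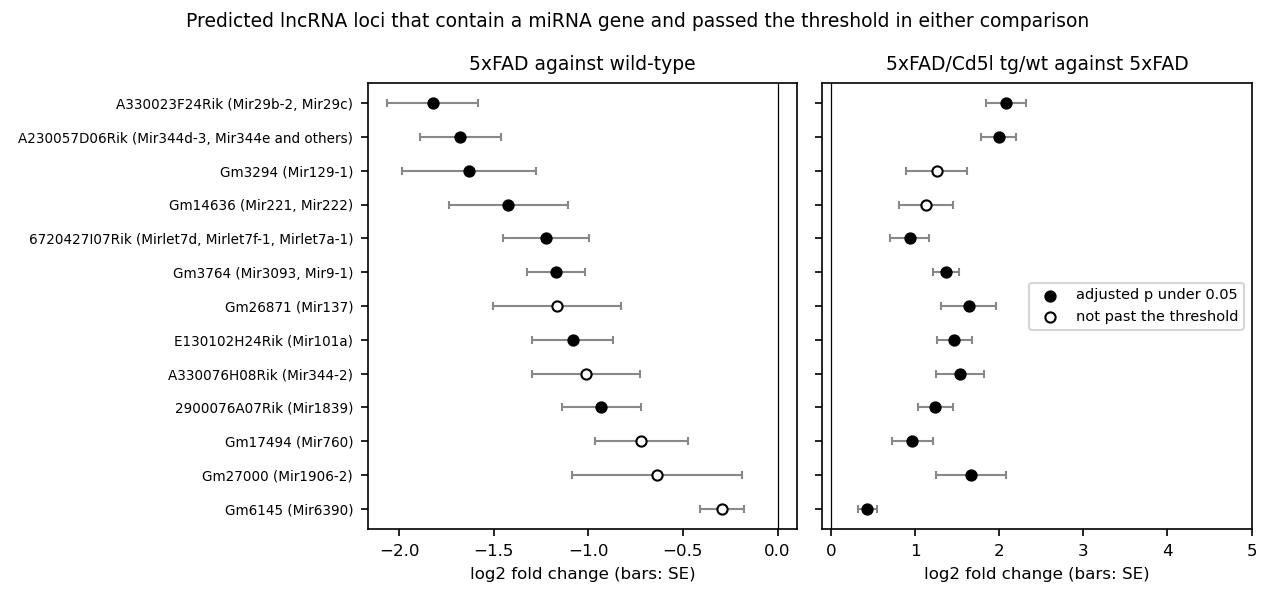
Log2 fold change with its SE (horizontal axis) for the 13 predicted lncRNA loci that contain a miRNA gene and passed the threshold in 5xFAD against wild-type (left) or 5xFAD/Cd5l tg/wt against 5xFAD (right), n = 3 libraries a genotype: filled points have an edgeR adjusted p under 0.05. All 13 lie below 0 on the left and above 0 on the right, and the largest changes are those of A330023F24Rik, -1.82 and 2.08.

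Low hosts gave less certain calls. Gm3294, the Mir129-1 host, had 4.31 ± 1.18, 1.39 ± 0.455 and 3.31 ± 1.28 CPM and fell by 1.63 on the log2 scale (adjusted p = 0.0254), with 1.26 (adjusted p = 0.0592) in 5xFAD/Cd5l tg/wt against 5xFAD. Gm14636, the Mir221 and Mir222 host on the X chromosome, had 2.53 ± 0.603, 0.929 ± 0.239 and 2.05 ± 0.447 CPM and fell by 1.42 (adjusted p = 0.0280), with 1.13 (adjusted p = 0.0586) in the other comparison. Both falls were lost without wild-type replicate 2 or 3 or any 5xFAD replicate. Gm26871, the Mir137 host, rose from 0.875 ± 0.291 CPM in 5xFAD to 2.70 ± 0.275 CPM in 5xFAD/Cd5l tg/wt (1.64 on the log2 scale, adjusted p = 0.0133), lost without 5xFAD replicate 1 or 2 or 5xFAD/Cd5l tg/wt replicate 3. Gm17494, with Mir760, rose from 2.37 ± 0.734 to 4.63 ± 0.829 CPM (adjusted p = 0.0350, lost under 9 of 19 alternatives, among them wild-type replicate 2, 5xFAD replicates 2 and 3 and 5xFAD/Cd5l tg/wt replicates 2 and 3). Gm27000, with Mir1906-2, rose from 0.508 ± 0.106 to 1.61 ± 0.518 CPM (adjusted p = 0.0347, lost under 7, among them any 5xFAD replicate and 5xFAD/Cd5l tg/wt replicates 2 and 3). Gm27000 had 7 to 20 counts in each wild-type and 5xFAD library and 19, 20 and 39 counts in the others. With those others at its 5xFAD level it would not have reached the minimum summed count. Its call is thus no independent support for a rise.

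Not every host of a brain miRNA passed. 1700016P03Rik, which holds Mir132 and Mir212, miRNAs that neuronal activity induces, had 10.2 ± 2.03 CPM in wild-type, 6.76 ± 1.14 in 5xFAD and 12.3 ± 6.53 CPM in 5xFAD/Cd5l tg/wt. Its 5xFAD/Cd5l tg/wt libraries were split, at 4.73, 15.7 and 16.4 CPM, and neither comparison passed (adjusted p = 0.444 and 0.173). 4921516A02Rik, an abundant host with Mir6410, went the other way, at 12.4 ± 3.38, 14.1 ± 1.45 and 10.1 ± 0.666 CPM. Its log2 fold changes were 0.19 (adjusted p = 0.667) and -0.48 (adjusted p = 0.131) by edgeR. Its 5xFAD/Cd5l tg/wt libraries all lay below its 5xFAD libraries. Gm6145, with Mir6390, rose by 0.43 ± 0.12 over 5xFAD (adjusted p = 0.0446), lost without any 5xFAD replicate or 5xFAD/Cd5l tg/wt replicate 2 or 3. Hosts of small nucleolar RNAs were few: 1 of 12 fell and 1 of 12 rose (8.33% each, beside 2.52% and 5.47% of all tested genes). These were 9330159M07Rik, which fell by 1.10 (adjusted p = 0.0490) and lost that call under 14 of 19 alternatives, among them 7 left-out libraries, all but 5xFAD replicate 3 and 5xFAD/Cd5l tg/wt replicate 1, and Gm15832, with Snord89, which rose by 1.66 (adjusted p = 0.0351) and lost that call under 7, among them 5xFAD replicate 1 or 2 and 5xFAD/Cd5l tg/wt replicate 2 or 3. The hosts A330076H08Rik, Gm3294, Gm14636, Gm26871, Gm17494, Gm27000, 1700016P03Rik, 9330159M07Rik and Gm15832 were chosen after their values were seen.

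Loci that hold no small RNA also changed, and 1700047M11Rik had the smallest p of the loci in 5xFAD against wild-type. It lies on chromosome 1 from 182115506 to 182130890, plus strand, 5.14 kb from Degs1, which encodes a ceramide synthesis enzyme. It had 17.2, 17.5 and 15.6 CPM in wild-type, 7.28, 8.08 and 6.96 CPM in 5xFAD, and 15.7, 15.4 and 19.1 CPM in 5xFAD/Cd5l tg/wt. Spread within a genotype was small, and 5xFAD lay far below both others. The log2 fold changes were -1.17 ± 0.13 (adjusted p = 0.000298) and 1.17 ± 0.13 (adjusted p = 0.000418), and Degs1 did not follow, with -0.02 (adjusted p = 0.932) and -0.13 (adjusted p = 0.403).

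Gm12940, antisense to Zmym1 on chromosome 4 (126927524 to 126943191), had 21.7, 27.5 and 26.8 CPM in wild-type, 15.4, 13.8 and 13.9 CPM in 5xFAD, and 28.5, 36.2 and 38 CPM in 5xFAD/Cd5l tg/wt. The 5xFAD/Cd5l tg/wt libraries were the highest and the 5xFAD libraries the lowest, with no overlap between any genotypes. The log2 fold changes were -0.82 ± 0.13 (adjusted p = 0.00455) and 1.26 ± 0.13 (adjusted p = 0.000307), the smallest p of the loci in the latter comparison, and Zmym1 had -0.10 (adjusted p = 0.799) and 0.08 (adjusted p = 0.770). Against wild-type, 5xFAD/Cd5l tg/wt did not pass at Gm12940 (0.44 on the log2 scale, edgeR adjusted p = 0.1385).

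A830036E02Rik, antisense to the keratin gene Krt12 on chromosome 11 (99307782 to 99316323), had 41.0, 47.7 and 36.7 CPM in wild-type, 23.1, 19.0 and 20.9 CPM in 5xFAD, and 38.1, 60.3 and 63.7 CPM in 5xFAD/Cd5l tg/wt. Its 5xFAD libraries were lowest, and 5xFAD/Cd5l tg/wt 1 lay within the wild-type range. The log2 fold changes were -0.99 ± 0.17 (adjusted p = 0.00815) and 1.36 ± 0.17 (adjusted p = 0.000928). Gm33989, on chromosome 7 from 39193826 to 39230013, 3.98 kb downstream of Zfp619, fell less, from 30.9 ± 1.58 CPM to 18.8 ± 1.41 CPM (-0.72 ± 0.11, adjusted p = 0.00401). Its rise to 28.6 ± 4.09 CPM (0.61 ± 0.11, adjusted p = 0.00852) was lost without 5xFAD replicate 1 or 2 or 5xFAD/Cd5l tg/wt replicate 3.

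**Figure D4:**
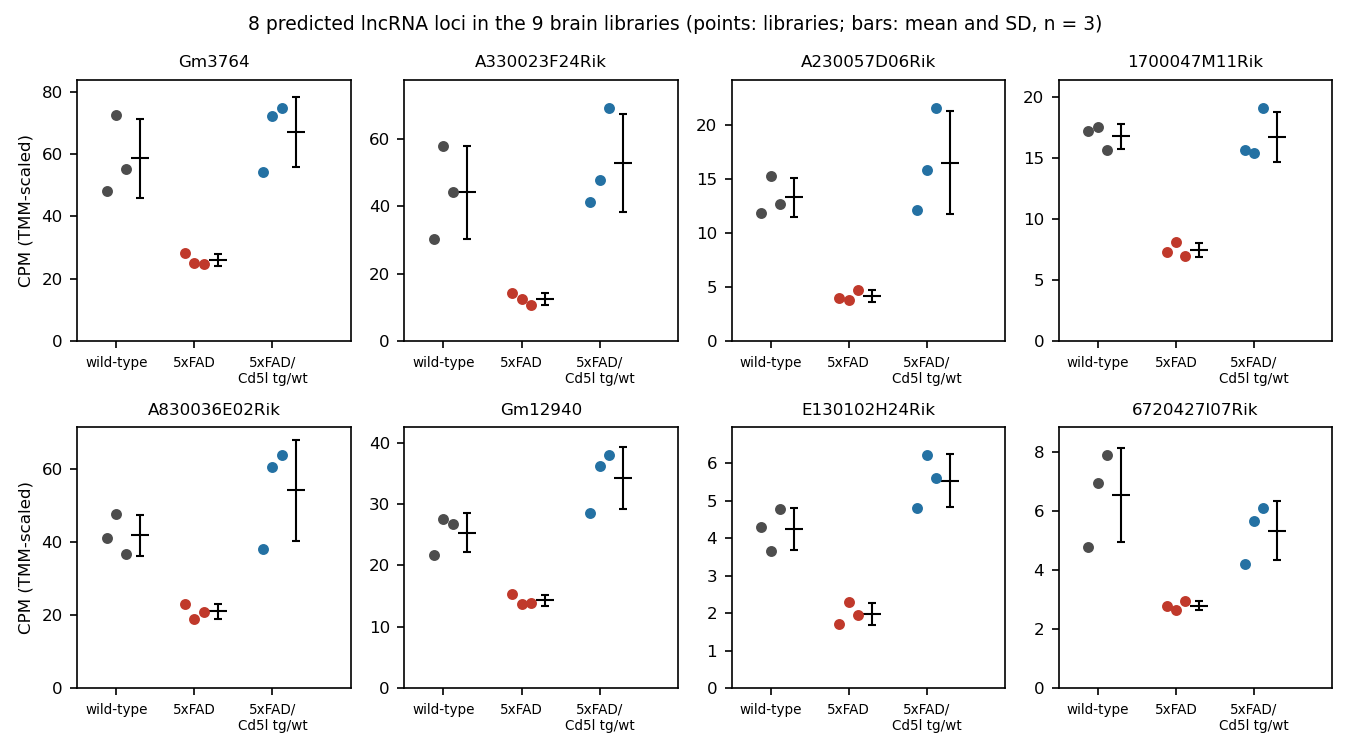
Level in CPM (TMM-scaled, vertical axis from 0) of 8 predicted lncRNA loci in each of the 9 libraries by genotype: points are libraries, and bars give the mean and SD of 3. In each panel the 3 5xFAD points lie below all wild-type and all 5xFAD/Cd5l tg/wt points, as in A330023F24Rik at 10.7 to 14.3 CPM.

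Other loci that fell in 5xFAD and were higher again in 5xFAD/Cd5l tg/wt were Gm20342, Gm21781, Gm42664 and Gm14827. Gm20342 lies 2.43 kb from Ino80d, and went from 3.43 ± 1.29 CPM in wild-type to 1.19 ± 0.0488 in 5xFAD and 3.75 ± 0.312 CPM in 5xFAD/Cd5l tg/wt. Gm21781, 3.48 kb from Zbtb2, went from 12.9 ± 2.95 to 5.68 ± 1.56 and 12.5 ± 1.60 CPM. Gm42664 lies within Ptbp2, which encodes a neuronal splicing repressor, on the same strand, and went from 3.00 ± 0.816 to 1.03 ± 0.356 and 3.72 ± 0.535 CPM. Reads of that locus cannot be told apart from retained sequence of Ptbp2, whose own log2 fold changes were -0.10 (adjusted p = 0.590) and 0.14 (adjusted p = 0.293). Gm14827, on the X chromosome, went from 3.14 ± 0.280 to 0.960 ± 0.228 and 4.14 ± 1.96 CPM. Their falls had adjusted p of 0.0114 to 0.0193, and each was lost without 5xFAD replicate 1 or 2. Without wild-type replicate 2 those of Gm20342 and Gm14827 were lost too, without 5xFAD replicate 3 the same 2, without wild-type replicate 1 that of Gm14827, and without wild-type replicate 3 that of Gm42664. Their rises had adjusted p of 0.00436 to 0.0100 and passed without each single library, except that of Gm21781, which was lost without 5xFAD replicate 1 or 2 or 5xFAD/Cd5l tg/wt replicate 3.

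B230206H07Rik, antisense to Eps8l2, passed only in 5xFAD against wild-type. It had 6.59 ± 0.524 CPM in wild-type, 3.30 ± 0.520 in 5xFAD and 5.22 ± 0.665 CPM in 5xFAD/Cd5l tg/wt, with log2 fold changes of -0.99 (adjusted p = 0.0126, lost without 5xFAD replicate 1) and 0.66 (adjusted p = 0.0595). The most abundant locus, B230334C09Rik, rose over 5xFAD (0.67 ± 0.18, adjusted p = 0.0427), a call lost under 10 of 19 alternatives, among them wild-type replicate 1, any 5xFAD replicate and 5xFAD/Cd5l tg/wt replicates 2 and 3.

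The 6 loci that fell in 5xFAD/Cd5l tg/wt against 5xFAD, described after their values were seen, were all antisense to a coding gene and low. Of all 1406 loci, 63.3% were antisense to a coding gene too, and the median level was 1.66 CPM. They were Gm28364 (over Aamp), Gm43579 (Ddx54), Gm9934 (Fam181b), Gm17122 (Coro1c), Gm12523 (Sort1) and 4933427G23Rik (Rint1). Gm28364 was the highest, at 4.73 ± 1.25 CPM in wild-type, 5.27 ± 0.694 in 5xFAD and 2.68 ± 0.208 CPM in 5xFAD/Cd5l tg/wt, and its log2 fold change was -0.97 ± 0.22 (adjusted p = 0.0246). Gm12523 had the largest fall, -1.87 ± 0.50 (adjusted p = 0.0455). None of these coding partners passed, at adjusted p of 0.201 to 0.913. Each of the 6 calls was lost under 6 to 13 of 19 alternatives. All of them were lost without 5xFAD replicate 1 or 2 or 5xFAD/Cd5l tg/wt replicate 2. 4933427G23Rik had 14, 19 and 13 counts in the 5xFAD libraries and 2 to 15 counts in each other library. It reached the minimum summed count only with these 5xFAD counts, the highest by genotype. Its call is thus no independent support for a fall.

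5xFAD/Cd5l tg/wt against wild-type, the remaining comparison, changed few loci. By edgeR 2 rose and 0 fell (0.142% of the loci, beside 1.64% of all tested genes), 121 had an unadjusted p under 0.05, and DESeq2 called 1 higher and 2 lower. No overlap was seen in 77 higher (5.48%, beside 7.98%) and 94 lower loci (6.69%, beside 6.5%). Both loci reached the minimum of 90 counts only through the 5xFAD/Cd5l tg/wt libraries, so that their calls are no independent support for a rise there. Gm31152, with 4 to 12 counts in each wild-type and 5xFAD library and 25, 32 and 26 counts in the others, lies on chromosome 7 from 12594811 to 12602510. It had 0.524, 0.729 and 0.484 CPM in wild-type, 0.397, 0.225 and 0.268 CPM in 5xFAD, and 1.67, 2.16 and 1.47 CPM in 5xFAD/Cd5l tg/wt, so that only the last genotype was high. Its log2 fold changes were 1.58 ± 0.34 against wild-type (adjusted p = 0.0401) and 2.55 ± 0.38 against 5xFAD (adjusted p = 0.00249). Gm26947, on chromosome 10, had 3 to 8 counts in each wild-type and 5xFAD library and 20, 18 and 22 counts in the others. Its levels were 0.305 ± 0.140, 0.345 ± 0.184 and 1.26 ± 0.0617 CPM, with a log2 fold change of 2.00 against wild-type (adjusted p = 0.0455). These calls against wild-type were lost under 12 and 11 of 19 alternatives, among them each wild-type replicate, 5xFAD replicate 1, and 5xFAD/Cd5l tg/wt replicates 2 and 3, and for Gm31152 also 5xFAD replicates 2 and 3.

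The counts were also taken by position relative to coding genes, with no test between positions. Over all tested genes, 2.52% fell in 5xFAD and 5.47% rose over it with the Cd5l transgene. An overlap with a coding gene on the other strand was found for 890 of the loci (63.3%), of which 13 fell in the 5xFAD group (1.46%) and 19 rose with the Cd5l transgene (2.13%). Of 279 loci (19.8%) with no overlap, no start within 2 kb head to head and no coding gene ending within 5 kb upstream of them on their strand, 19 fell (6.81%) and 41 rose (14.7%). They are called away from coding genes below by these criteria alone. Some of them lie a few kb from a coding gene, such as 2900076A07Rik at 1.80 kb from Fsd2 and Gm20342 at 2.43 kb from Ino80d. Of 51 that overlapped a coding gene on their own strand and none on the other, 5 fell (9.80%) and 10 rose (19.6%). These rises include that of Gm17024, which met the minimum summed count only because its 5xFAD/Cd5l tg/wt counts were above its 5xFAD level. Of 147 head to head with a coding gene 1 fell (0.68%) and 5 rose (3.4%), and of 39 downstream of one 2 fell (5.13%) and 3 rose (7.69%). By name, 24 of the 915 Gm loci fell (2.62%) and 47 rose (5.14%), beside 16 (3.26%) and 31 (6.31%) of the 491 Rik loci. Both name classes were near the shares of all tested genes.

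The position counts moved with single libraries too. For the 279 loci away from coding genes, the 19 falls were 4 without 5xFAD replicate 1 or 2, 7 without wild-type replicate 2, 11 without 5xFAD replicate 3 and 12 without wild-type replicate 3. Their 41 rises were 12 without 5xFAD replicate 2, 14 without 5xFAD replicate 1, 20 without 5xFAD/Cd5l tg/wt replicate 2 and 14 without its replicate 3. For the antisense loci, the 13 falls were 3 to 8 without wild-type replicate 1 or 2 or any 5xFAD replicate, and the 19 rises were 4 to 8 without 5xFAD replicate 1 or 2 or 5xFAD/Cd5l tg/wt replicate 2 or 3. For the same-strand loci, the 5 falls were 0 to 3 without any wild-type replicate, 5xFAD replicate 1 or 2 or 5xFAD/Cd5l tg/wt replicate 3. Their 10 rises were 1 to 5 without 5xFAD replicate 1 or 2 or 5xFAD/Cd5l tg/wt replicate 2 or 3, and 19 without 5xFAD/Cd5l tg/wt replicate 1. The 5 head to head rises were 1 without 5xFAD replicate 1 or 2 or 5xFAD/Cd5l tg/wt replicate 3 and 2 without its replicate 2. The 3 downstream rises were 0 without 5xFAD replicate 1 or 2 or 5xFAD/Cd5l tg/wt replicate 3 and 1 without its replicate 2. The 1 head to head fall was 0 or 2 without every library but 5xFAD replicate 3, and the 2 downstream falls were 1 without wild-type replicate 2 or any 5xFAD replicate. Without the 3 libraries that stood apart, falls and rises were 32 and 12 for the loci away from coding genes, 19 and 4 for the antisense loci, 6 and 1 for the same-strand loci, 3 and 1 for the head to head loci and 3 and 1 for the downstream loci.

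Among same-strand loci, Gm37963 within Usp4 rose from 1.33 ± 0.510 to 5.53 ± 2.65 CPM against 5xFAD (2.05 ± 0.39, adjusted p = 0.0102, lost without 5xFAD replicate 1 or 2 or 5xFAD/Cd5l tg/wt replicate 3) while Usp4 had 0.13 (adjusted p = 0.383). Gm17024 within Ifrd1 rose from 0.375 ± 0.0349 to 1.5 ± 0.202 CPM (1.98 ± 0.38, adjusted p = 0.0102, lost without 5xFAD replicate 1 or 2) while Ifrd1 had -0.17 (adjusted p = 0.383). Gm17024 had 5 to 16 counts in each wild-type and 5xFAD library and 26, 21 and 24 counts in the others. With those others at its 5xFAD level it would not have reached the minimum summed count. Its call is thus no independent support for a rise. Among head to head loci, 4632427E13Rik, 0.093 kb from the start of Rab30, went from 2.25 ± 0.890 to 0.857 ± 0.0141 and 2.60 ± 0.346 CPM. Its fall (adjusted p = 0.0376) was lost under 11 of 19 alternatives, all but wild-type replicate 3 and 5xFAD/Cd5l tg/wt replicate 1 among the left-out libraries, and its rise (adjusted p = 0.0146) without 5xFAD replicate 1 or 2.

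The nearest or overlapping coding genes of called loci passed in a share near that of all tested genes. Of 34 called loci with a tested coding neighbour in 5xFAD against wild-type, 1 neighbour passed in the same direction, which was Cd46, where 2.52% of all tested genes fell. In 5xFAD/Cd5l tg/wt against 5xFAD it was 5 of 77, where 5.47% of all tested genes rose, and no neighbour passed in the opposite direction in either. Across the 842 antisense loci with a tested partner, the log2 fold changes of locus and partner had a Spearman correlation of 0.271 in the former and 0.291 in the latter comparison. Locus and partner share the library and, where counting ignored strand, could share reads.

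By level, changes were most frequent among the 35 loci of 20 CPM or more, of which 6 fell (17.1%) and 11 rose (31.4%). Protein-coding genes of that level fell in 2.59% and rose in 5.34%. Of 189 loci of 5 to 20 CPM 12 fell (6.35%) and 16 rose (8.47%), beside 2.27% and 6.19% of protein-coding genes of that level. Of 375 loci of 2 to 5 CPM 14 fell (3.73%) and 27 rose (7.20%), beside 1.71% and 4.16% of such genes. Of 430 loci of 1 to 2 CPM 4 fell (0.930%) and 7 rose (1.63%), beside 0.952% and 2.38%. Of 377 loci under 1 CPM 4 fell (1.06%) and 17 rose (4.51%), beside 0.398% and 1.79% of protein-coding genes of that level. Loci this low could reach the minimum of 90 counts through 1 genotype in which they were high. The 11 rises of the high loci were 4 without 5xFAD replicate 2, 5 without 5xFAD replicate 1, 7 without 5xFAD replicate 3, 6 without 5xFAD/Cd5l tg/wt replicate 2 and 5 without its replicate 3. Without the 3 libraries that stood apart, 10 fell and 4 rose.

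Other non-coding genes are given for comparison, beside 2.52% of all tested genes that fell in 5xFAD and 5.47% that rose over it with the Cd5l transgene. Of all 395 tested lncRNA genes with established names, 25 fell (6.33%) and 38 rose (9.62%). A list of 28 lncRNAs and a list of splicing regulators were chosen with earlier results of these data known and are no independent evidence of a direction. Of the 28 lncRNAs, 12 fell and 14 rose. Of 20 splicing regulators known for retained introns, 11 fell and 14 rose. Gene models awaiting experimental support, the TEC biotype, fell in 34 of 266 (12.8%) and rose in 60 (22.6%). Markers of endothelium and mural cells moved with them: 5 of 10 fell and 7 of 10 rose, and their summed level was 427.6 to 461.3 CPM in wild-type, 307.8 to 317.7 CPM in 5xFAD and 455.4 to 465.7 CPM in 5xFAD/Cd5l tg/wt. The share of counts at Rn18s-rs5, a ribosomal RNA sequence, was 0.0582% to 0.255% in wild-type, 0.184% to 0.265% in 5xFAD and 0.0660% to 0.121% in 5xFAD/Cd5l tg/wt. Microglial markers rose in 10 of 10 in 5xFAD against wild-type and 0 of 10 passed in 5xFAD/Cd5l tg/wt against 5xFAD. The part of these in the results above was not tested.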

How the data were processed

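The deposited table held raw counts per gene, made by the authors for 56748 genes in 9 libraries. The submitters' processing notes name the build GRCm39. Aligner, counter, multi-mapping and strand settings were not given in the sources used here. Groups came from the labelled genotype. edgeR 4.0.16 (R 4.3.3, limma 3.58.1) fitted all 9 libraries with TMM scaling and its quasi-likelihood test, over 17096 genes with at least 90 summed counts, the same minimum as for the loci, so that every locus was tested. Benjamini-Hochberg adjustment covered all tested genes, at 0.05. SE is the log2 fold change over the square root of F. The fit was tested on simulated data.

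Named loci were those with the smallest p in each comparison, the highest CPM and CPM per kb, those past the threshold in both crossed comparisons, the highest small RNA hosts, and the smallest p per position class. Others are said to be chosen later. The loci, lists and rules were chosen with earlier results of these data known. Libraries of the same number did not deviate together (correlations -0.116 to 0.154), so that none were paired. Alternatives were RLE scaling, filterByExpr or no filter, DESeq2 1.42.0, limma-voom, 6 libraries only, a replicate block, gene length offsets, removal of ribosomal, mitochondrial and globin genes, and left-out libraries. Figures used matplotlib 3.10.9.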

Additional observations from a re-analysis of the deposited data

How the results depend on the processing

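The number of predicted lncRNA loci past the threshold was 40 in 5xFAD against wild-type, 84 in 5xFAD/Cd5l tg/wt against 5xFAD and 2 in 5xFAD/Cd5l tg/wt against wild-type. With no filter it was 78, 146 and 31. Without wild-type 3 and 5xFAD/Cd5l tg/wt 2 and 3 it was 64, 23 and 3. With 1 library left out at a time it ran from 8 to 51, from 18 to 119 and from 0 to 9. With the replicate number as a block it was 32, 63 and 0 (99 at an unadjusted p under 0.05 in the last), and with only the 6 libraries compared 41, 82 and 0 (93 at an unadjusted p under 0.05). filterByExpr gave 1 in the last comparison. DESeq2 gave 50, 100 and 3, and limma-voom 34, 83 and 2. The replicate number pairs no samples here. The cause of these shifts was not tested, except that leaving out libraries also removes samples. Without wild-type 3 and 5xFAD/Cd5l tg/wt 2 and 3, only replicate 1 remains in the 5xFAD/Cd5l tg/wt group. Of the named calls, 7 of 20, 9 of 36 and 0 of 2 held under every alternative, and no called direction was reversed. The counts of loci without overlap stayed within 1.5 times under RLE and total-count scaling. Precision is limited by 3 mice a genotype and by the depth, at which 3 counts are 0.168 to 0.207 CPM.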

Other observations

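Single libraries stood out at some loci. Gm32113, antisense to Frmpd3 on the X chromosome and chosen after its values were seen, had 5.60 CPM in wild-type 3 and at most 0.524 CPM in each of the other 8 libraries, and wild-type 3 was also the library with the highest cerebellum and hindbrain markers. Gm14703, a model antisense to Syp, the gene of the synaptic vesicle protein synaptophysin, had 73.0 CPM in wild-type 1 beside 37.3 and 37.6 CPM in wild-type 2 and 3. Neither passed in any comparison.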
